A study of Homo sapiens with 4 samples.

Results

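The genes described here code for the respiratory chain and ATP synthase of mitochondria, and they are split between the mitochondrial and the nuclear genome. The rule for members uses gene symbols and no measured value, though it was set with earlier results of these data known. They are the 13 protein-coding genes starting with MT-ND, MT-CO, MT-CYB or MT-ATP, and 95 nuclear protein-coding genes starting with NDUFA, NDUFB, NDUFC, NDUFS, NDUFV, UQCR, COX4 to COX8 or ATP5, or named SDHA, SDHB, SDHC or SDHD. The rule found 108 members among 40188 genes with values. Of these, 99 reached a mean of at least 1 cRPKM over the libraries and count as tested, among 12706 tested genes: all 13 mitochondrial mRNAs and 86 nuclear genes. The cRPKM is the deposited read density, a read count scaled by gene length and library total. The prefixes also take in 8 complex I assembly factors (NDUFAF1 to NDUFAF8), the complex IV subunit NDUFA4, the ATP synthase inhibitor ATP5IF1 and the supercomplex factor COX7A2L.

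Complex I (NADH dehydrogenase) and complex II (succinate dehydrogenase) pass electrons to ubiquinone, complex III passes them on to cytochrome c, and complex IV (cytochrome c oxidase) reduces oxygen. Complexes I, III and IV pump protons, and complex V (ATP synthase) uses the gradient to make ATP. Complexes I, III, IV and V are built from products of both genomes, while all subunits of complex II are nuclear. Mitochondrial DNA is transcribed as long RNAs from both strands, which are cut mostly at the tRNAs between the mRNAs, while each nuclear gene has a promoter of its own.

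The libraries are stranded RNA-seq of polyA-selected RNA from HEK293, a line from human embryonic kidney. Each of the 4 libraries came from a stable line carrying a doxycycline-inducible empty vector, or the gene of the RNA-binding protein MSI1, or that of SRRM3 or SRRM4, both regulators of neural microexon splicing. All 4 lines, the empty vector included, received doxycycline at 1 µg/mL for 24 h and grew in tetracycline-free serum. The sources used here do not give whether a line was 1 clone or a pool. There was 1 library per group, so no value below has a replicate check and an effect of a transgene cannot be told apart from a difference between lines or libraries.

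Total counts ran from 60288244 to 63003121 per library. Each induced gene peaked in its own library: MSI1 at 62.43 cRPKM, SRRM3 at 38.53 and SRRM4 at 63.78, against at most 10.56, 1.39 and 0.39 elsewhere. All 7 HEK293 markers looked up reached 1 cRPKM in at least 1 library, with summed levels of 1391 to 1756. None of 4 blood, 2 liver and 5 muscle markers did, and 1 of 5 fibroblast markers did (COL1A1, 3.23 to 4.29 cRPKM). MT-CO2, the marker of mitochondrial transcripts, was the 21st most abundant gene in the empty vector library and was present in all 4.

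Ratios are of counts scaled by library total, with exact conditional (Clopper-Pearson) 95% intervals. They hold counting error alone, so they speak of libraries and not of conditions. A log2 fold is on the log2(cRPKM + 0.5) scale. A gene is counted as higher or lower where this fold put it at least 25% higher, or at 80% of the other library or less, and the interval excluded 1. This is called the 25% rule below; it sorts by size and tests nothing. The 3 comparisons with the empty vector share that library, as SRRM4 over SRRM3 shares its libraries with them.

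The mitochondrial mRNAs took 0.838% of all reads in the empty vector library, 1.02% in MSI1, 1.28% in SRRM3 and 0.891% in SRRM4. The nuclear members together took 1.20%, 1.17%, 1.18% and 1.20%. The mitochondrial share thus was 1.53 times the empty vector's in SRRM3, 1.22 times in MSI1 and 1.06 times in SRRM4, while the nuclear share stayed between 0.971 and 0.999 times. Exact (Clopper-Pearson) binomial 95% intervals of the mitochondrial share were 0.835% to 0.840% in the empty vector and 1.280% to 1.285% in SRRM3. Reads of mitochondrial mRNAs per read of a nuclear member were 0.698, 0.875, 1.08 and 0.743 in the same order. In bulk RNA, a different number of mitochondrial genomes and a different amount of RNA from each cannot be told apart.

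By gene, 11 of the 13 mitochondrial mRNAs were counted as higher in SRRM3 than in the empty vector and 0 as lower, where 5.48% of all tested genes were higher and 3% lower. In MSI1, 4 were higher and 0 lower, against 6.6% and 4.12% of all tested genes. In SRRM4, 0 were higher and 0 lower, against 2.3% and 2.15%. Between SRRM4 and SRRM3, 10 were lower in SRRM4 and 1 was higher, against 6.04% and 3.11%. Median log2 folds over the empty vector were 0.28 in MSI1, 0.61 in SRRM3 and 0.09 in SRRM4, and the median of SRRM4 over SRRM3 was -0.53. The same medians over all tested genes were 0.016, 0.0029, -0.0035 and -0.0071.

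The nuclear members lay close to no difference in each comparison. Their median log2 folds were -0.03 in MSI1, -0.04 in SRRM3 and -0.01 in SRRM4, and 0.03 for SRRM4 over SRRM3. In MSI1, 0 of 86 were higher and 2 lower, where 6.6% of all tested genes were higher and 4.12% lower. In SRRM3, 0 were higher and 6 lower, against 5.48% and 3% of all tested genes. In SRRM4, 0 were higher and 0 lower, against 2.3% and 2.15%. Between SRRM4 and SRRM3, 4 were higher in SRRM4 and 0 lower, against 3.11% and 6.04%. The ratio of the highest to the lowest library had a median of 1.11 over the nuclear members, and the highest exceeded the lowest by less than 25% for 77 of 86. For the mitochondrial mRNAs the median of that ratio was 1.53, with 1 of 13 under that limit, and over all tested genes it was 1.20. No tested member of either genome differed 2-fold in any of the 4 comparisons, where 0.362% (MSI1), 0.527% (SRRM3), 0.425% (SRRM4) and 0.236% (SRRM4 over SRRM3) of all tested genes did in either direction. The median level of all tested genes was below that of the nuclear members. Their shares, here and below, and the ratio of 1.20 are thus not matched for level. Counts for genes of like length and level are given further below.

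**Figure D1:**
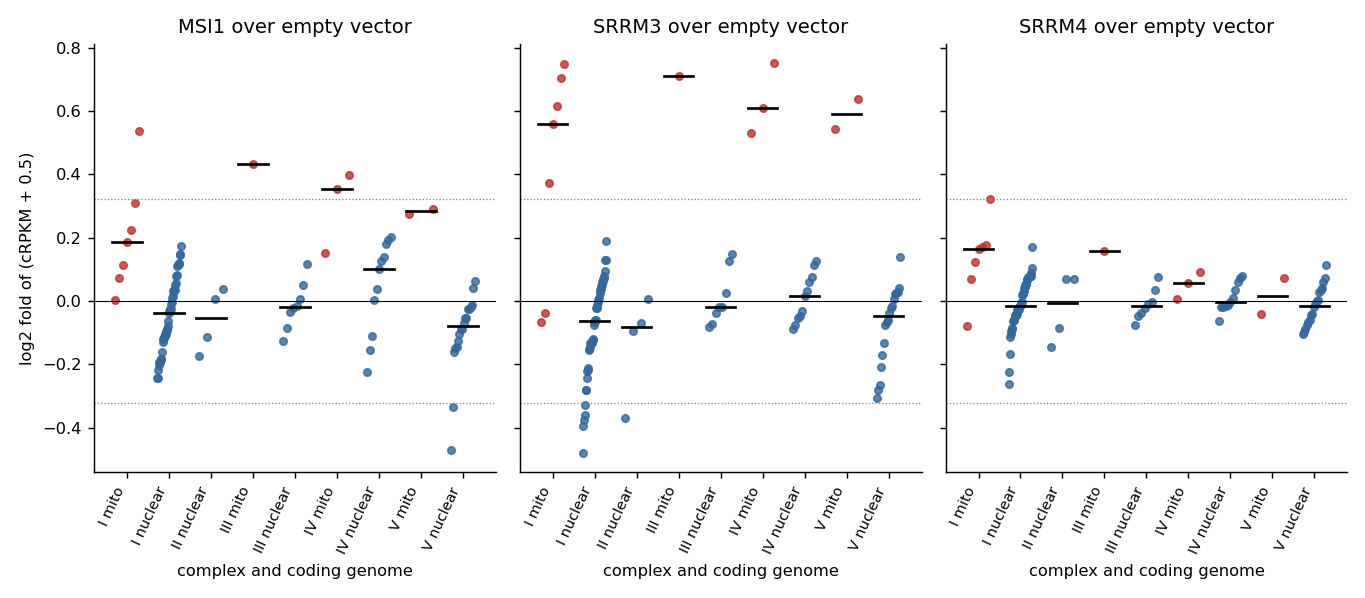
Log2 fold of (cRPKM + 0.5) over the empty vector (vertical axis) for each tested member, by complex and coding genome (horizontal axis), in 1 panel per library. Red points are mitochondrial mRNAs, blue points nuclear genes, black bars medians and dotted lines the 25% rule; the red points of SRRM3 reach 0.75, while the blue points stay between -0.48 and 0.20 in all 3 panels.

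Of the mitochondrial genes of complex IV, MT-CO2 codes for the subunit that takes electrons from cytochrome c. Its level was 1700 cRPKM in the empty vector, 2174 in MSI1, 2860 in SRRM3 and 1810 in SRRM4. SRRM3 was thus 1.68 times the empty vector (1.67 to 1.70), MSI1 1.28 times (1.27 to 1.29) and SRRM4 1.06 times (1.05 to 1.08). Its rank among all genes went from 21 in the empty vector to 9 in MSI1, 4 in SRRM3 and 20 in SRRM4. MT-CO1, the catalytic subunit, was at 1349, 1779, 2059 and 1402 cRPKM, and MT-CO3, a core subunit without redox centres, at 1161, 1290, 1678 and 1168. All 3 had the order SRRM3, MSI1, SRRM4, empty vector. For MT-CO3 the SRRM4 and empty vector libraries did not differ beyond counting error (ratio 1.01, 0.993 to 1.02). The 20 most abundant genes held 0 mitochondrial mRNAs in the empty vector, 1 in MSI1, 3 in SRRM3 and 1 in SRRM4.

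MT-CYB, cytochrome b and the only mitochondrial gene of complex III, was at 397 cRPKM in the empty vector, 536 in MSI1, 650 in SRRM3 and 443 in SRRM4. It stood at 1.64 times the empty vector in SRRM3 (1.61 to 1.66), 1.35 times in MSI1 (1.33 to 1.37) and 1.12 times in SRRM4 (1.097 to 1.13). Intervals of neighbouring libraries in this order did not touch.

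The mitochondrial genes of complex V, MT-ATP8 and MT-ATP6, code for membrane subunits of the ATP synthase and lie on 1 RNA with overlapping reading frames. The shared bases are shown because reads there cannot be assigned to either gene. They are in capitals, with 20 bases on each side in lower case, from the GENCODE 29 transcripts on GRCh38, chrM:8507-8592, plus strand. The capitals start with the start codon of MT-ATP6, and 46 bases are shared.
MT-ATP8 and MT-ATP6: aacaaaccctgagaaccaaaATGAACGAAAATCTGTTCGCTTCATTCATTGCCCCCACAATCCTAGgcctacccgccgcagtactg
In the order empty vector, MSI1, SRRM3, SRRM4, the level of MT-ATP6 was 1340, 1639, 2086 and 1410 cRPKM and that of MT-ATP8 1045, 1264, 1523 and 1016. Series of 4 levels below keep this order. In SRRM3 the ratios to the empty vector were 1.56 (1.54 to 1.57) for MT-ATP6 and 1.46 (1.42 to 1.495) for MT-ATP8. In SRRM4 they were 1.05 (1.04 to 1.07) and 0.972 (0.946 to 1.00), so genes read from the same RNA lay on either side of 1.

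Complex I has 7 mitochondrial genes, all for subunits of its membrane arm. MT-ND4L and MT-ND4 also share an RNA, and the capitals below mark their 7 shared bases, from the start codon of MT-ND4 to the stop codon of MT-ND4L (same source, chrM:10740-10786, plus strand).
MT-ND4L and MT-ND4: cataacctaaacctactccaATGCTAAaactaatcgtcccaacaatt
MT-ND4 was at 722 cRPKM in the empty vector, 895 in MSI1, 1175 in SRRM3 and 816 in SRRM4, and MT-ND4L at 761, 888, 1120 and 798. In SRRM3 the ratios to the empty vector were 1.63 (1.61 to 1.64) and 1.47 (1.44 to 1.51). In MSI1 they were 1.24 (1.23 to 1.253) and 1.17 (1.14 to 1.20), and in SRRM4 1.13 (1.12 to 1.14) and 1.05 (1.02 to 1.08). The shorter gene of the pair had the lower ratio in each library, as MT-ATP8 had beside MT-ATP6, and in SRRM3 the intervals did not overlap within either pair.

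MT-ND5 was at 379, 432, 637 and 426 cRPKM, MT-ND1 at 256, 269, 392 and 287, and MT-ND2 at 646, 699, 837 and 704. Over the empty vector, SRRM3 was at 1.68 for MT-ND5 (1.66 to 1.70), 1.53 for MT-ND1 (1.501 to 1.57) and 1.30 for MT-ND2 (1.28 to 1.31). In these genes the MSI1 library was near SRRM4: for MT-ND1, MSI1 stood at 1.05 (1.03 to 1.08) and SRRM4 at 1.12 (1.096 to 1.15) times the empty vector. MT-ND2 did not separate MSI1 (1.08, 1.07 to 1.096) from SRRM4 (1.09, 1.07 to 1.104).

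MT-ND3 (ENSG00000198840, chrM:10059-10404) and MT-ND6 (ENSG00000198695, chrM:14149-14673) were the 2 mitochondrial mRNAs that were not higher in SRRM3. MT-ND3 was at 975 cRPKM in the empty vector, 977 in MSI1, 949 in SRRM3 and 923 in SRRM4. Its SRRM3 level was 0.974 times the empty vector's (0.954 to 0.994), and its MSI1 level 1.00 times (0.982 to 1.02). The log2 fold of MT-ND3 in MSI1, 0.0031, turned to -0.03 with TMM factors and to -0.01 after centring, while the other 12 stayed above 0. MT-ND3 took 3.46%, 2.84%, 2.20% and 3.08% of the reads of mitochondrial mRNAs in the 4 libraries, and against the rest of them its ratio was 0.628 (0.615 to 0.641) in SRRM3, 0.817 in MSI1 and 0.887 in SRRM4. MT-ND4L and MT-ATP8 are shorter than MT-ND3, at 297 and 207 bases against 346, and were at 1.47 and 1.46 in SRRM3. Both lie on an RNA shared with a longer gene, and a part of length in the MT-ND3 values was not tested.

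MT-ND6 is the 1 mRNA coded on the other strand and is known to lack a stable poly(A) tail. It had the lowest level, 8.49 cRPKM in the empty vector (251 reads), 12.54 in MSI1 (376), 8.08 in SRRM3 (242) and 10.73 in SRRM4 (308). MSI1 was at 1.48 times the empty vector (1.255 to 1.74) and SRRM4 at 1.26 times (1.07 to 1.499), which was just short of the 25% rule on the log2(cRPKM + 0.5) scale, while SRRM3 (0.952, 0.794 to 1.14) did not differ from it beyond counting error. SRRM4 exceeded SRRM3 1.33-fold (1.12 to 1.58), the reverse of the other mitochondrial mRNAs. The sources used here do not give whether the counting used strand, and without it reads of MT-ND6 and of RNA from the opposite strand cannot be told apart.

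**Figure D2:**
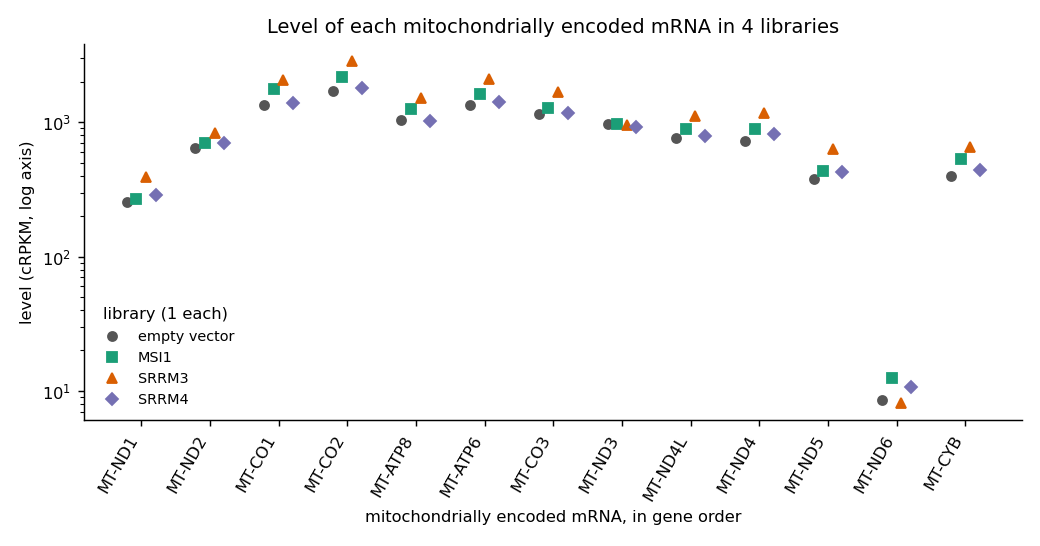
Deposited level (cRPKM, log axis) of each mitochondrially encoded mRNA in gene order, with 1 point per library. SRRM3 is highest for 11 of 13 genes, MT-ND3 is nearly level over the 4 libraries (923 to 977 cRPKM) and MT-ND6 lies at 8.08 to 12.54 cRPKM.

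The mitochondrial rRNAs start the heavy-strand transcript and reach a polyA-selected library only in part, since their tails are short. MT-RNR1 was at 105.0 cRPKM in the empty vector, 120 in MSI1, 106 in SRRM3 and 107 in SRRM4. MT-RNR2 was at 507, 569, 619 and 528. In SRRM3, MT-RNR1 stood at 1.01 times the empty vector (0.969 to 1.04) and MT-RNR2 at 1.22 times (1.20 to 1.24), both under the 1.45 to 1.68 of 10 of the mRNAs and under the 1.30 of MT-ND2. In MSI1 they stood at 1.14 and 1.12. The rRNA reads were 0.0430%, 0.0485%, 0.0504% and 0.0446% of each library. The 22 mitochondrial tRNAs together had 184 to 251 reads a library.

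Of 5 replication-dependent histone genes, whose RNAs mostly lack poly(A) tails, 3 were tested. Their median log2 folds were -0.02 (MSI1), -0.38 (SRRM3) and -0.42 (SRRM4). The same rule counted 1 of them as lower in MSI1, 2 in SRRM3 and 2 in SRRM4, against 4.12%, 3% and 2.15% of all tested genes. H1-2, a linker histone, had 36.22 cRPKM in the empty vector, 45.08 in MSI1, 27.62 in SRRM3 and 26.86 in SRRM4. H2AC6, a core histone, was at 6.45, 4.76, 4.55 and 4.50. H2BC4, another core histone, was at 1.42, 1.40, 1.22 and 1.42 from 34 to 39 reads, and no library differed from the empty vector beyond counting error. Which RNA forms of these 3 genes, with or without a tail, gave the reads was not tested. Nor was their part in the mitochondrial result.

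**Figure D3:**
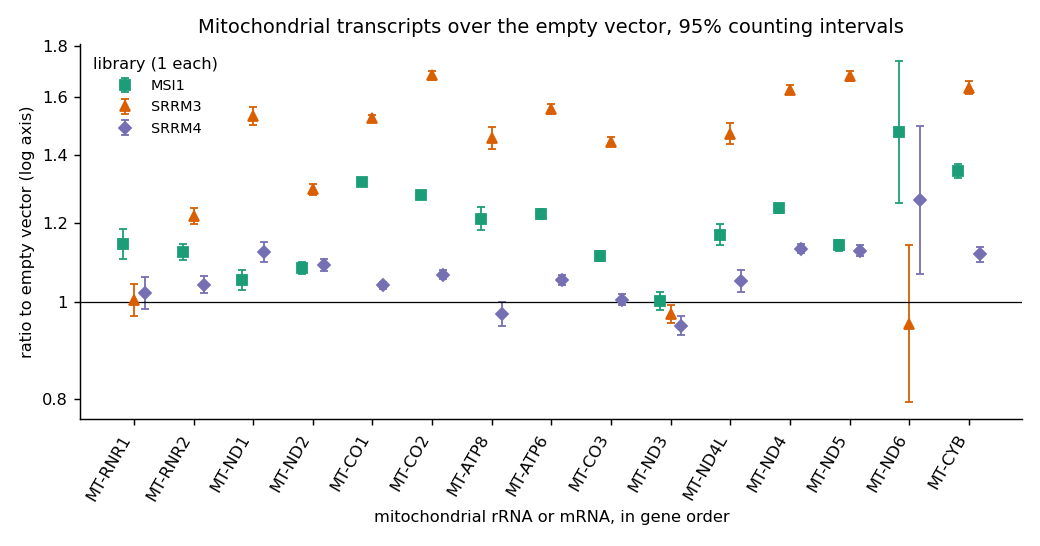
Ratio to the empty vector (log axis) with 95% counting intervals for the mitochondrial rRNAs and mRNAs in gene order, with 1 symbol per library. In SRRM3 the ratio is near 1 at MT-RNR1, MT-ND3 and MT-ND6 and between 1.22 and 1.68 at all others.

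Of nuclear complex I, 45 of 46 genes were tested. In SRRM3, 29 lay below 0 and 16 above, with a median log2 fold of -0.06, and 5 were counted as lower. Of all tested genes, 49.1% lay below 0 there and 3% were lower. In MSI1, 28 lay below 0 and 0 were counted in either direction, and the same count was 0 in SRRM4. Of all tested genes, 6.6% were higher and 4.12% lower in MSI1, and 2.3% and 2.15% in SRRM4. NDUFS5, an accessory subunit, was the most abundant at 334, 311, 331 and 330 cRPKM. NDUFAF6, an assembly factor, was the least abundant tested at 5.17, 5.23, 4.67 and 5.26.

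NDUFV1 (ENSG00000167792, chr11:67605653-67612554) codes for the subunit that oxidises NADH. It was at 74.84 cRPKM in the empty vector, 63.16 in MSI1, 56.77 in SRRM3 and 74.68 in SRRM4. SRRM3 stood at 0.758 times (0.732 to 0.786) and MSI1 at 0.844 times (0.816 to 0.873) the empty vector, and SRRM4 did not differ from it (0.998, 0.965 to 1.03). NDUFS3, of the peripheral arm, was at 102, 89.79, 83.86 and 105 cRPKM, and SRRM4 stood at 1.253 times SRRM3 (1.21 to 1.30). Of the 7 nuclear core subunits, which carry the flavin and iron-sulphur centres or help bind ubiquinone, 4 lay below 0 in SRRM3 and 5 in MSI1. NDUFS7, next to the ubiquinone site, had the largest log2 fold upward of any nuclear member in SRRM3, at 55.06, 59.56, 62.88 and 62.00 cRPKM and 1.14 times the empty vector (1.09 to 1.20).

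NDUFB6 (ENSG00000165264, chr9:32552999-32573184), an accessory subunit of the membrane arm, was at 43.98 cRPKM in the empty vector, 39.29 in MSI1, 33.81 in SRRM3 and 39.11 in SRRM4. SRRM3 stood at 0.769 times the empty vector (0.730 to 0.810), and SRRM4 at 0.889 times (0.845 to 0.936). The largest log2 folds downward in SRRM4 belonged to NDUFB5 and NDUFB1, also of the membrane arm. NDUFB5 was at 47.30, 45.25, 40.81 and 39.40 cRPKM, which is 0.833 times the empty vector in SRRM4 (0.791 to 0.877), and NDUFB1 at 96.04, 84.46, 96.79 and 82.07. Neither met the 25% rule. Upward in SRRM4, NDUFS7 stood at 1.13 times the empty vector, ATP5F1D of complex V at 1.08 times and NDUFB8 at 1.08 times. Downward between SRRM4 and SRRM3 the largest log2 folds were those of NDUFB1 (0.848 times), NDUFS1 (0.917 times) and NDUFA13 (0.923 times).

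The 8 NDUFAF assembly factors, which help to build complex I and are not part of it, had a median log2 fold of -0.19 in SRRM3, with 7 below 0 and 3 counted as lower, against 3% of all tested genes. Their medians were -0.01 in MSI1 and 0.02 in SRRM4. NDUFAF5 (ENSG00000101247, chr20:13784950-13821582), an arginine hydroxylase acting on NDUFS7, was at 10.27, 9.44, 7.23 and 10.94 cRPKM from 266 to 386 reads. SRRM3 stood at 0.704 times the empty vector (0.599 to 0.826), and SRRM4 at 1.51 times SRRM3 (1.29 to 1.78), the widest span of the 86 tested nuclear members. NDUFAF2 was at 46.16, 40.37, 35.88 and 47.04 cRPKM, and SRRM3 stood at 0.777 times the empty vector (0.726 to 0.832). NDUFAF4, named after its values were seen, was at 22.32, 22.27, 17.67 and 21.63. For all 3, SRRM3 was the lowest library and the empty vector and SRRM4 lay within counting error of each other. Without the NDUFAF genes, the 37 other nuclear complex I genes tested had a median of -0.02 in SRRM3, with 2 counted as lower.

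Complex II is wholly nuclear, and 0 of its 4 genes was counted as higher in any comparison. Over the 4 comparisons, 2.3% to 6.6% of all tested genes were higher, and in SRRM3 3% were lower. SDHA, the flavoprotein, was at 103 cRPKM in the empty vector, 91.34 in MSI1, 103 in SRRM3 and 108 in SRRM4. SDHB, the iron-sulphur subunit, was at 126, 130, 118 and 133. SDHC, a membrane anchor, was at 17.36, 17.45, 16.51 and 16.35. SDHD (ENSG00000204370, chr11:112086773-112120013), the other anchor, was at 61.74, 56.99, 47.72 and 55.80 and was the 1 gene of the complex counted as lower in SRRM3, at 0.773 times the empty vector (0.742 to 0.805). Its SRRM4 level was 0.904 times the empty vector's (0.869 to 0.940). SDHA and SDHD thus had their lowest level in different libraries.

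Of nuclear complex III, 8 of 9 genes were tested and 0 were counted in either direction in any of the 4 comparisons. Of all tested genes, 2.15% to 6.6% were counted per direction and comparison, so 0 of 8 is near that share. Its median log2 folds were -0.02 in MSI1, -0.02 in SRRM3 and -0.02 in SRRM4. UQCRQ, a small subunit, was the most abundant at 158, 156, 156 and 150 cRPKM, and UQCRB the least abundant tested at 22.47, 20.54, 21.20 and 22.11. UQCRFS1, the Rieske iron-sulphur protein, had the largest upward fold in SRRM3, at 80.14, 87.03, 88.82 and 82.12 cRPKM and 1.11 times the empty vector (1.09 to 1.13). MT-CYB, its partner from the other genome, was at 1.64 times there.

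The median of nuclear complex IV differed in direction from those of complexes I and V in MSI1, though its genes were mixed. There 8 of 11 tested genes lay above 0 (all tested genes: 53.4%), and 7 had their highest library in MSI1. The median log2 fold was 0.10 and the mean 0.05. None met the 25% rule. COX6B1, a subunit on the intermembrane side, was the most abundant at 488 cRPKM in the empty vector, 563 in MSI1, 529 in SRRM3 and 514 in SRRM4, and MSI1 stood at 1.15 times the empty vector (1.13 to 1.17). COX7A2L, the supercomplex factor and the least abundant, was at 26.72, 30.63, 27.31 and 26.50, and MSI1 stood at 1.15 times (1.103 to 1.19). COX5B, on the matrix side, was at 176, 199, 185 and 175, or 1.13 times in MSI1 (1.098 to 1.17). In SRRM3 the median was 0.02 and in SRRM4 -0.0038, with 6 and 5 genes above 0. NDUFA4, which has a complex I name and sits in complex IV, was at 70.36, 65.48, 67.50 and 65.42.

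The tissue isoforms of complex IV and others were at or near 0. COX4I2 (lung), COX6A2 and COX7A1 (heart and muscle) and COX7B2 (testis) had 0 reads in all 4 libraries, as had ATP5MGL. COX8C, COX6B2, NDUFA4L2 and UQCRHL reached at most 0.10, 0.13, 0.34 and 0.17 cRPKM. From few reads, MSI1 was above the empty vector for NDUFA4L2 (24 against 5 reads, 4.73 times, 1.77 to 15.9) and UQCRHL (17 against 3 reads, 5.58 times, 1.62 to 29.7). These 9 nuclear members were not tested, and the ubiquitous isoforms COX4I1, COX6A1, COX7A2 and COX8A were at 241 to 541 cRPKM in every library.

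In nuclear complex V, 16 of 18 tested genes lay below 0 in MSI1, with a median log2 fold of -0.08, and 2 were counted as lower, where 46.1% of all tested genes lay below 0 and 4.12% were lower. ATP5MC1 (ENSG00000159199, chr17:48892765-48895871), 1 of 3 genes for the c subunit of the rotor ring, was at 216 cRPKM in the empty vector, 156 in MSI1, 192 in SRRM3 and 207 in SRRM4. MSI1 stood at 0.722 times the empty vector (0.697 to 0.748). The other c subunit genes were at 0.902 times in MSI1 for ATP5MC2 (0.881 to 0.924) and 0.987 times for ATP5MC3 (0.966 to 1.01), and all 3 code for the same mature protein. ATP5F1E (ENSG00000124172, chr20:59025467-59032382), the epsilon subunit of the central stalk, was at 19.67, 15.48, 15.82 and 18.34, the lowest level of the complex, with 0.787 times the empty vector in MSI1 (0.751 to 0.824) and 0.804 times in SRRM3 (0.768 to 0.842). ATP5F1B, the catalytic beta subunit and the most abundant nuclear member, was at 757, 712, 779 and 779 cRPKM. In SRRM3, 12 of 18 genes lay below 0, and ATP5MC2 had the largest upward fold, 1.102 times (1.08 to 1.13).

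Levels can be set against each other within a library, where scaling between libraries plays no part. The median mitochondrial gene of complex I was at 9.19 times the median nuclear gene in the empty vector, 11.1 in MSI1, 12.4 in SRRM3 and 9.78 in SRRM4. For complex III the ratio was 4.57, 5.92, 7.26 and 5.08, for complex IV 4.79, 7.38, 7.54 and 4.95, and for complex V 6.72, 9.31, 10.2 and 6.80. The order SRRM3, MSI1, SRRM4, empty vector held in all 4 complexes. With sums in place of medians it held too, at 1.01, 1.17, 1.44 and 1.08 for complex I, 0.538, 0.731, 0.872 and 0.607 for complex III, 1.47, 1.75, 2.24 and 1.51 for complex IV and 0.648, 0.840, 1.01 and 0.661 for complex V. In SRRM3 the ratio of sums stood at 1.42, 1.62, 1.53 and 1.56 times the empty vector's in complexes I, III, IV and V. For complex IV in MSI1 the median gave 1.54 times and the sum 1.19 times, and COX8A, the median nuclear gene of the complex in each library, was itself lowest there (282, 241, 273 and 283 cRPKM).

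**Figure D4:**
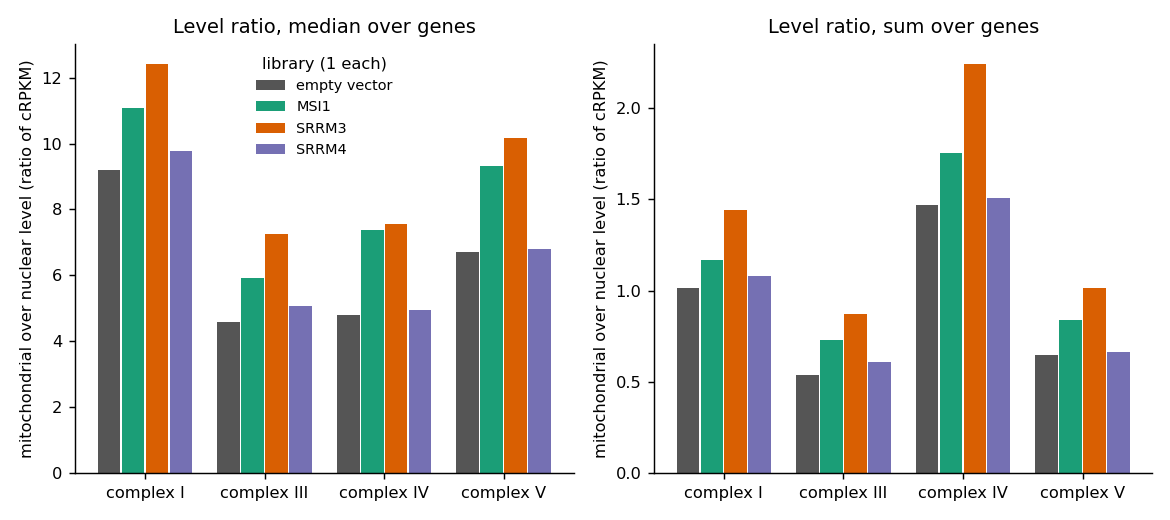
Ratio of the mitochondrial to the nuclear level (cRPKM over cRPKM, vertical axis from 0) in each complex with genes in both genomes, with 1 bar per library, from medians (left) and sums (right). SRRM3 has the highest bar in each complex, 12.4 in complex I by medians and 2.24 in complex IV by sums.

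The size of such ratios depends on the length behind the cRPKM. It was the annotated length minus 49 bases for all 13 mitochondrial mRNAs, and ran from 0.128 kb for UQCRH to 12.6 kb for SDHC among nuclear genes. The ratio of a single gene between libraries does not depend on this length, while a comparison of medians or sums over genes can. For complex IV, the MSI1 ratio of medians was 1.54 times the empty vector's with the deposited cRPKM. It was 1.20 times with counts per kilobase of the annotated principal transcript. Mean levels ran from 5.08 to 757 cRPKM over tested nuclear members, with a median of 89.2, and from 9.96 to 2136 over mitochondrial mRNAs, with a median of 902. Other protein-coding genes with a mean of at least 250 cRPKM (195 genes) had medians of -0.01, -0.0067 and 0.02 in MSI1, SRRM3 and SRRM4. Another set of 2185 protein-coding genes was taken from the central part of the nuclear members' lengths (0.49 to 3.01 kb) and mean levels (22 to 280 cRPKM). Its medians were -0.01, -0.01 and 0.02. Nuclear copies of mitochondrial genes could share reads with them. Those looked at were 11 of the MTRNR2L family, copies of the rRNA gene MT-RNR2, of which MTRNR2L12 was highest at 0.16 to 0.49 cRPKM. Nuclear copies of the mRNA genes were not looked at, so whether these share reads with the 13 mRNAs was not tested.

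Many nuclear respiratory chain genes are known targets of NRF1, which binds a palindromic site. RefSeq promoters (GRCh38.p14, 250 bases before to 50 after the start) matched 76 of the 95 nuclear members. The full NRF1 motif, the 10 capital letters in the windows printed here, was searched on both strands and found in 5 of 76 (6.58%), in 2.37% of 9530 promoters of tested protein-coding genes and in 1.36% of all 27305 promoters. Its shorter form GCATGCGC, contained in it, was in 19.7% of the nuclear members against 5.70% and 3.27%. The motif CCGGAAG of the ETS family, which includes the GABPA subunit of NRF2/GABP, was in 27.6% against 20.3% and 10.7%. A match is a description of letters and not a binding site. In 3 of the 5 promoters the full motif lies wholly before the RefSeq start, and these windows are printed with the motif in capitals. They are at chr3:120596162-120596201, chr11:112086748-112086787 and chr10:7788140-7788176, all on the plus strand. The motif begins 159, 110 and 22 bases before the RefSeq start. In GENCODE 29, ATP5F1C begins at chr10:7788129, so its window lies within the gene there.
NDUFB4: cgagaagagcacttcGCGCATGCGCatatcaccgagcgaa
SDHD: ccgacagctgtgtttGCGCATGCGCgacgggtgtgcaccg
ATP5F1C: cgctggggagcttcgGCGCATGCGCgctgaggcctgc
The motif spans the RefSeq start in NDUFA8 and NDUFAF5. The 5 genes with it had median log2 folds of -0.12, -0.24 and -0.04 in MSI1, SRRM3 and SRRM4, and the 67 tested genes without it -0.02, -0.02 and -0.01. The 15 with the shorter form had -0.05, -0.08 and 0.03, and the 21 with CCGGAAG had -0.02, -0.02 and -0.0038. NRF1 itself had 10.06 cRPKM in the empty vector, 10.27 in MSI1, 10.71 in SRRM3 and 10.87 in SRRM4, and GABPA 22.06, 21.71, 20.78 and 21.28. Among the other regulators, PPARGC1B, a coactivator of NRF1, was at 1.99, 1.54, 1.69 and 2.10, and TFEB, a regulator of lysosomal genes, at 1.47, 2.49, 1.79 and 1.60.

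Most nuclear genes that make, process and translate mitochondrial RNA lay below 0 in SRRM3, where 11 of 13 mitochondrial mRNAs lay above. Of all tested genes, 49.1% lay below 0 in SRRM3 and 3% were counted as lower, and in MSI1 46.1% and 4.12%. The 10 genes of mitochondrial transcription had a median log2 fold of -0.12 in SRRM3, with 8 below 0 and 1 counted as lower, and 0.02 in both MSI1 and SRRM4. That gene was TFB2M, the transcription initiation factor, at 6.53 cRPKM in the empty vector, 5.57 in MSI1, 4.89 in SRRM3 and 6.80 in SRRM4, or 0.749 times the empty vector in SRRM3 (0.669 to 0.837). Of 26 genes for mitochondrial RNA processing and stability, 21 lay below 0 in SRRM3, with a median of -0.09 and 3 counted as lower, and 17 lay below 0 in MSI1, with a median of -0.05 and 0 counted. The 3 were REXO2, an oligoribonuclease (46.35, 50.79, 34.83 and 42.48), TRMT10C, a subunit of mitochondrial RNase P (18.73, 16.49, 14.45 and 17.34), and FASTKD3 (9.20, 8.55, 7.15 and 9.74), an RNA-binding protein of the FASTK family. Of 77 mitoribosomal proteins, 59 lay below 0 in SRRM3 (76.6%, against 49.1% of all tested genes), with a median of -0.09 and 3 counted as lower, among them MRPL11 at 0.764 times (0.729 to 0.801). In MSI1, 55 of 77 lay below 0 (71.4%, against 46.1% of all tested genes), with a median of -0.06, and in SRRM4 24 did, with a median of 0.04.

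Genes of complex I assembly as a whole, 19 with the NDUFAF genes, had a median of -0.16 in SRRM3 with 7 counted as lower (all tested genes: 3%), -0.10 in MSI1 and -0.02 in SRRM4. TMEM126B, an assembly factor of the membrane arm, was at 31.46, 29.26, 22.23 and 28.64 cRPKM, and ECSIT, of the same assembly complex, at 25.83, 30.58, 29.02 and 36.68, highest in SRRM4 (1.42 times the empty vector, 1.35 to 1.49). The 24 complex IV assembly genes had a median of -0.03 in SRRM3 with 1 counted as lower, PET117 at 13.85, 10.83, 10.25 and 12.34 cRPKM. Assembly genes of complexes II (4), III (6) and V (5) had medians of -0.0073, -0.14 and -0.05 there, with 1, 1 and 0 counted as lower. These were SDHAF2 (15.28, 13.94, 11.85 and 15.02) and UQCC1 (20.84, 17.88, 15.52 and 18.63).

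The 11 mitochondrial DNA replication genes had medians of 0.0011 in MSI1, -0.02 in SRRM3 and 0.04 in SRRM4. POLG, the DNA polymerase, was highest in SRRM4 at 28.92, 30.20, 32.21 and 37.88 cRPKM, and TWNK, the helicase, lowest in SRRM3 at 17.04, 15.84, 13.45 and 17.51. Of the 17 electron carrier genes, CYCS, cytochrome c, was at 58.30, 52.41, 46.45 and 52.79, or 0.797 times in SRRM3 (0.777 to 0.817), and COQ8B, of ubiquinone synthesis, at 14.47, 17.87, 18.80 and 15.27. The list medians were -0.02, -0.01 and -0.02. The 14 genes of the TCA cycle had -0.06, 0.02 and -0.02, and CS, citrate synthase, was at 165, 132, 149 and 163. The 17 genes of protein import and inner membrane carriers had -0.01, -0.08 and 0.02, and TOMM20, the import receptor, was at 179, 143, 161 and 174. CS and TOMM20 had the lowest log2 folds of their lists in MSI1. Of the 14 TCA cycle genes 5 lay above 0 in MSI1 and 8 in SRRM3, and of the 17 import and carrier genes 7 and 4 did. In both libraries 0 of either list was counted in either direction. Of all tested genes, 6.6% were higher and 4.12% lower in MSI1, and 5.48% and 3% in SRRM3. The 80 cytosolic ribosomal proteins had -0.02, -0.01 and 0.0088.

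**Figure D5:**
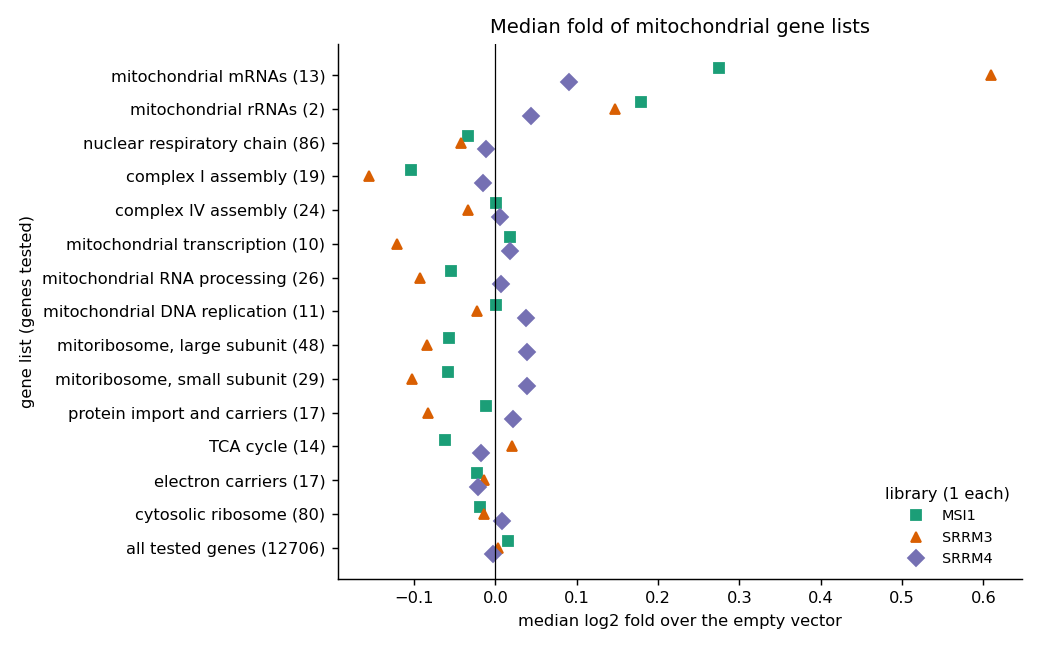
Median log2 fold over the empty vector (horizontal axis) of each gene list (vertical axis, tested genes in brackets), with 1 symbol per library. The mitochondrial mRNAs reach 0.61 in SRRM3, and the nuclear lists plotted, from the respiratory chain to the electron carriers, lie between -0.16 and 0.04.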

How the data were processed

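Per the labels, polyA-selected stranded RNA-seq was made from 4 HEK293 lines, 1 library per group, grouped by genotype label. Each deposited file gives an Ensembl gene ID, a corrected RPKM (cRPKM) and a whole-number read count per gene, as computed by the authors. Per the submitters' processing notes the genome build is GRCh38 (hg38). The sources used here do not give the aligner, counter, annotation release or use of strand. Over 6042 well-covered genes the deposited RPKM equalled the deposited count divided by library total and a gene-specific length, within 0.094%. Of 41614 genes, 1426 had no value and were left out, and symbols and positions of 39941 were matched to GENCODE 29. Renamed genes outside the prefixes, such as DMAC2L (formerly ATP5S), are not members.

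With 1 library per group no test was possible and no p-value is given. Log2 folds used a pseudocount of 0.5 cRPKM, which understates differences of low genes, and genes with a mean of at least 1 cRPKM. A gene was counted when at least 25% higher, or at 80% or less, with a 95% interval excluding 1. Reads are not independent molecules, so intervals cover counting error only. Members and lists were chosen with earlier results of these data known. Named genes are all mitochondrial mRNAs, the most and least abundant nuclear member per complex, the 3 largest folds per direction and comparison with an interval excluding 1, the SDH genes, and up to 3 per other list. COX4I1, COX5A, COX6A1, COX7A2, COX7C, COX8A, NDUFA4, NDUFAF4 and the c subunit genes serve as partners, isoforms or genes of the opposite direction. They were named after their values were seen. Simulated counts with known changes served to test the procedure. They held counting error alone and planted changes larger than the 25% rule asks for, so they do not speak of variation between libraries. Alternatives were pseudocounts of 0.1 and 2, no filter or a mean of at least 5 cRPKM, edgeR TMM factors, totals without mitochondrial reads, centring, 1.5-fold and 2-fold rules, no interval, means, another control, sums, and members without assembly factors. Software was edgeR 4.0.16 under R 4.3.3, and matplotlib 3.10.9, scipy 1.17.1, pandas 2.3.3 and numpy 2.4.6 under Python 3.11.15.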

Additional observations from a re-analysis of the deposited data

How the results depend on the processing

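No paired analysis was possible because each group has 1 library and the labels give no replicate numbers; leaving out a replicate was not possible for the same reason. Over 8 alternatives in pseudocount, filter, scaling and averaging, the mitochondrial minus nuclear median log2 fold stayed at 0.30 to 0.31 in MSI1, 0.58 to 0.65 in SRRM3, 0.097 to 0.11 in SRRM4 and -0.56 to -0.47 for SRRM4 over SRRM3. It depended on the control: MSI1 over SRRM3 gave a mitochondrial median of -0.33, a nuclear one of 0.0094 and a difference of -0.34. SRRM3 over MSI1 gave 0.33, -0.0094 and 0.34, and SRRM4 over MSI1 gave -0.15, 0.029 and -0.18. With a 1.5-fold rule 7 mitochondrial mRNAs were higher in SRRM3, 0 in MSI1 and 0 in SRRM4 over SRRM3, where 1 was lower, and 0 nuclear genes were counted in any comparison; with a 2-fold rule all these counts were 0. With a pseudocount of 2 the nuclear count lower in MSI1 was 1, and with no filter the nuclear count higher in MSI1 was 2. With a pseudocount of 0.1, TMM factors or centring, 1 mitochondrial mRNA was higher in SRRM4. For the other gene lists, all 476 medians stayed within the rank-based interval of the main median, and 49 of 952 counts moved. In the smallest lists that interval spans every value, so a median could hardly leave it.

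Ratios of mitochondrial to nuclear levels changed with the summary, in the order empty vector, MSI1, SRRM3 and SRRM4. By sums they were 1.015, 1.167, 1.441 and 1.077 in complex I, 0.538, 0.731, 0.872 and 0.607 in complex III, 1.467, 1.753, 2.24 and 1.506 in complex IV, and 0.648, 0.840, 1.013 and 0.661 in complex V. Without the NDUFAF genes and NDUFA4, complex I gave 7.78, 8.63, 10.8 and 8.54. Counts per kilobase of the annotated principal transcript, chosen after seeing the data, gave 9.55, 11.5, 12.9 and 10.4 in complex I, 5.77 and 7.14 in MSI1 and SRRM3 in complex III, 8.37, 10.0, 12.6 and 8.88 in complex IV, and 7.01, 9.44, 10.7 and 7.23 in complex V. SRRM3 was highest and the empty vector lowest in each of the sets of 4 values above. The cause of these shifts was not tested beyond the change of summary itself. Depth limits MT-ND6 and NDUFAF5, with 242 to 386 reads a library, more than the other members tested, and the lack of replicates limits every comparison.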
